A study of Mus musculus with 6 samples.

Results

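The genes described here are the receptors, ligands and effectors with which the retinal pigment epithelium (RPE) takes up shed photoreceptor outer segments. They are 10 genes, named by their role and matched by symbol to the Ensembl identifiers of the deposited tables, out of 15663 genes listed. All 10 were listed and all 10 had more than 50 counts in at least 2 samples, so that all were tested. Itgav and Itgb5 encode the binding integrin and Mfge8 its ligand, Mertk, Axl and Tyro3 are the TAM receptor kinases, Gas6 and Pros1 are their ligands, and Ptk2 and Myo7a act inside the cell.

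RNA-seq was performed on RPE-choroid, the RPE together with the vascular layer under it, from 3 control mice and 3 mice with subretinal fibrosis (SRF). All were male C57BL/6J mice (C57BL/6 in the labels) of 8 to 10 weeks with no genetic change, and each library came from 1 mouse. SRF mice received 4 laser burns in each eye, each lesion was burnt again after 10 days, and the eyes were collected a further 20 days on, while control mice were healthy and received no laser. Whether 1 eye or both went into a library is not given in the sources used here, and the laser acts on a few spots, so that a library also holds tissue away from the lesions.

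Photoreceptors renew their light-sensing outer segments every day, and the RPE clears the tips that are shed. The exposed phosphatidylserine of a tip is bridged by MFG-E8 to the αvβ5 integrin at the apical surface of the RPE, which holds the particle, and by Gas6 or protein S to MERTK, which starts engulfment. Macrophages and microglia use the same ligands and receptors to clear dying cells, so these transcripts are not particular to 1 cell type of the tissue.

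The tissue was checked against marker lists. Totals were between 13667310 and 24356023 counts per library. The RPE visual cycle gene Rpe65 was at 3511 to 4687 CPM (counts scaled to library size, normalized with the TMM method) in control mice and 2524 to 3454 CPM in SRF mice. The RPE channel gene Best1 was low, at 2.77 to 4.55 CPM in controls and 4.16 to 4.54 CPM in SRF. The summed level of 25 photoreceptor markers was 15476 CPM in control mouse 1 and 15017 CPM in SRF mouse 3, against 925 to 2146 CPM in the other 4 mice, so that 1 library of each group held far more photoreceptor RNA. Values without these libraries are given for the members and calls that they moved most.

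Itgb5 was higher in SRF by 1.07 on the log2 scale and Mfge8 by 0.58, and Itgav was lower, at -0.57, with no overlap between control and SRF mice for these 3 genes. The engulfment receptor Mertk, the kinase gene Ptk2 and the motor gene Myo7a had differences close to 0, and the other TAM receptors and both TAM ligands were higher on average with groups that overlapped. No member passed the quasi-likelihood test of edgeR, Benjamini-Hochberg adjusted over 13454 genes, for which an adjusted p under 0.05 and a change of 0.5 or more on the log2 scale were required. It called 0 genes in all, 0% of those tested. At an unadjusted p under 0.05 it gave 3 of the 10 members, against 7.01% of all tested genes. Those at that p and higher in SRF were 2 of the 10 members, against 4.16% of all tested genes. Of the 943 tested genes at that p, 560 were higher in SRF. DESeq2 called the same 3 members at the thresholds of adjusted p and change given above, against 1.14% of all tested genes. The share of all tested genes whose groups did not overlap was 13.1%.

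**Figure D1:**
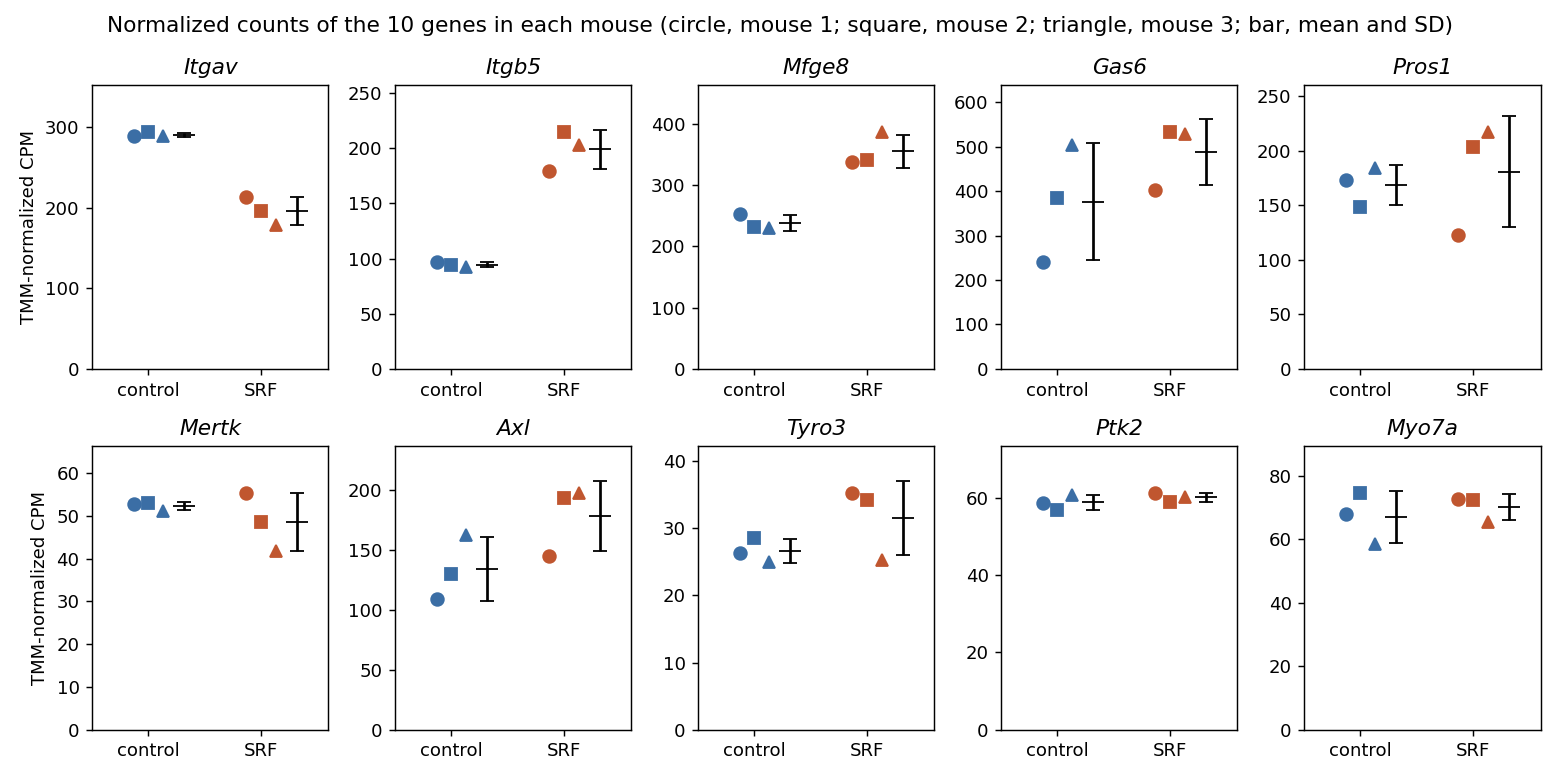
Normalized counts (TMM CPM, vertical axis from 0, a scale for each gene) of the 10 genes in 3 control mice (blue) and 3 SRF mice (orange). Points are single mice and bars the mean and SD. Itgav, Itgb5 and Mfge8 are the 3 genes whose groups do not overlap.

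Itgb5 (ENSMUSG00000022817, GRCm38 chr16:33829665-33949338, plus strand) encodes the β5 chain of the binding integrin. Its level was 97.0, 94.6 and 92.0 CPM in control mice 1, 2 and 3, and 180, 215 and 203 CPM in SRF mice 1, 2 and 3. Every SRF mouse was far above every control mouse, and the control values lay within a narrow range. The mean was 94.5 ± 2.53 CPM (SD, n = 3) in controls and 199 ± 17.8 CPM (SD, n = 3) in SRF, which is a log2 fold change of 1.07 with a standard error of 0.11 and a 95% interval of 0.81 to 1.34. By unadjusted p Itgb5 stood at place 3 of the 13454 genes, with an adjusted p of 0.106 in edgeR's quasi-likelihood test and of 1.75e-14 in DESeq2, both Benjamini-Hochberg adjusted. FPKM gave a similar fold, from 37.8 ± 1.47 in controls to 73.8 ± 5.39 in SRF (SD, n = 3 each). With the 2 photoreceptor-rich libraries left out, edgeR called Itgb5 at an adjusted p of 0.0136.

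Itgav (ENSMUSG00000027087, GRCm38 chr2:83724397-83806916, plus strand) encodes the αv chain, the partner of β5 and also of other β chains. Its level was 289, 294 and 289 CPM in control mice 1, 2 and 3, and 214, 196 and 179 CPM in the SRF mice in the same order. Each SRF mouse was below all controls, so the αv transcript lay on the opposite side of controls from its β5 partner. The mean was 291 ± 2.77 CPM in controls and 196 ± 17.3 CPM in SRF (SD, n = 3 each), a log2 fold change of -0.57 with a standard error of 0.11 and a 95% interval of -0.83 to -0.31. The adjusted p was 0.264 with edgeR and 3.33e-04 with DESeq2, both after Benjamini-Hochberg adjustment.

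The size of the Itgav difference depended on the deposited unit. Its FPKM was 221, 241 and 184 in control mice and 206, 168 and 104 in SRF mice, and there the groups overlapped, since SRF mouse 1 was above control mouse 3. On log2(FPKM + 0.1) limma gave a difference of -0.48 with a Benjamini-Hochberg adjusted p of 0.816. The number of CPM that 1 FPKM stood for ranged from 1.05 to 1.74 between libraries for Itgav, a spread of 1.65-fold. That spread was 1.15-fold for Itgb5 and 1.01-fold for Mfge8, and it was smaller still for Mertk, Gas6 and Pros1. The annotation gives 9 transcripts of Itgav, from 0.444 to 7.05 kb, and whether the libraries differed in which of them they held was not tested.

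Mfge8 (ENSMUSG00000030605, GRCm38 chr7:79133768-79149060, minus strand) encodes the secreted bridge between phosphatidylserine and the αv integrins. It was at 253, 232 and 230 CPM in control mice 1, 2 and 3 and at 338, 341 and 386 CPM in SRF mice 1, 2 and 3. The lowest SRF mouse was well above the highest control mouse. From 238 ± 12.9 CPM in controls to 355 ± 27.1 CPM in SRF (SD, n = 3 each), the log2 fold change was 0.58 with a standard error of 0.11 and a 95% interval of 0.31 to 0.84. The adjusted p was 0.264 by edgeR's quasi-likelihood test and 2.17e-04 by DESeq2, with Benjamini-Hochberg adjustment in both. In FPKM the groups were as far apart, at 116 ± 6.27 in controls and 178 ± 12.6 in SRF (SD, n = 3 each).

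The RefSeq promoter table (GRCm38.p6) held 9 of the 10 genes, all but Ptk2. The 250 bases before the start of the 3 genes whose groups did not overlap are shown because these are the members that differed, with motif matches in capitals.
Itgb5, chr16:33829415-33829664, plus strand: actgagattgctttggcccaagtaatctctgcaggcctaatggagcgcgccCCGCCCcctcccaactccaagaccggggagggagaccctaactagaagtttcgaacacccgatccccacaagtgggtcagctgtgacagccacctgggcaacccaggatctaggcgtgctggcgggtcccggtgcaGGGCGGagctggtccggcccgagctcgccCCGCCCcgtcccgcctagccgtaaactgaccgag
Mfge8, chr7:79149061-79149310, minus strand: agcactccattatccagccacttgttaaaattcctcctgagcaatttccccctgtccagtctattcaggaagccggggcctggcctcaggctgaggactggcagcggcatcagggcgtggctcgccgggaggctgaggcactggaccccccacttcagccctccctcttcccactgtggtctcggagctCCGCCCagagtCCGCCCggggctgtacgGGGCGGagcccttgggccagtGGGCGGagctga
Itgav, chr2:83724147-83724396, plus strand: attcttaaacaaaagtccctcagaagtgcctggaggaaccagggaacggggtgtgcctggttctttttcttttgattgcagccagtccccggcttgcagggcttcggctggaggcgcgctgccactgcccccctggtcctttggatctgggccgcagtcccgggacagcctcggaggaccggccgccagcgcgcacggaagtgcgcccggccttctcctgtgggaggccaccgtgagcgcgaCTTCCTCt

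In the Itgb5 and Mfge8 windows the capitals mark the GC box GGGCGG on either strand, and in the Itgav window they mark GAGGAAG, a PU.1-type motif, which stands there on the opposite strand. Itgb5 held 3 GC boxes, Mfge8 held 4, and Itgav held none in this window. The GC box was found in 8 of the 9 members and in 32.7% of 32817 windows of the table. GAGGAAG was found in Itgav and Axl and in 10.6% of all windows. The E-box CACGTG, the AP-1 motif TGANTCA and the OTX motif TAATCC were in no window of the 9 members, against 6.02%, 6.75% and 6.25% of all. Myo7a had windows at different starts, and a match in any of them counted for the gene, while the shares over all are per window. The 3 windows were rich in G and C, at 65.2% for Itgb5, 65.2% for Mfge8 and 64.4% for Itgav, against a median of 52.4% over all windows. These matches describe the letters only.

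The 2 integrin chains were set against each other in FPKM, which is scaled by length. For Itgav that scaling varied between libraries, since 1 FPKM stood for 1.05, 1.19 and 1.74 CPM in SRF mice 1, 2 and 3. The ratio of Itgb5 to Itgav was 0.177, 0.159 and 0.197 in control mice 1, 2 and 3, and 0.334, 0.472 and 0.704 in SRF mice 1, 2 and 3. All SRF mice had the higher ratio. The SRF mice also differed more among themselves, and their ratios rose in the same order as the CPM per FPKM of Itgav. On the log2 scale the ratio was -2.50 ± 0.15 in controls and -1.06 ± 0.54 in SRF (SD, n = 3 each), a difference of 1.44 with p = 0.1 in a two-sided exact permutation test, the smallest p that 3 mice against 3 allow. With TMM CPM, which is not scaled by length, the log2 ratio was -1.62 ± 0.04 and 0.02 ± 0.24 (SD, n = 3 each), a difference of 1.64. CPM per kilobase of the longest annotated transcript was also compared, a choice made after the FPKM had been seen. In that unit Itgb5 was at 28.0 to 29.6 and Itgav at 41.0 to 41.7 in control mice. In SRF mice Itgb5 was at 54.7 to 65.4 and Itgav at 25.4 to 30.3. Which chain was the higher in SRF thus depended on the unit.

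The αv chain pairs with other β chains too, and Itgb8, which encodes the β8 chain known for activating latent TGFβ, lay on the same side of controls as Itgav. Itgb8 was at 826, 831 and 876 CPM in control mice and 604, 551 and 608 CPM in SRF mice, with no overlap, and its log2 fold change was -0.52 with a standard error of 0.10. Its adjusted p was 0.280 with edgeR and 1.76e-04 with DESeq2, both Benjamini-Hochberg adjusted. As a description chosen after these values were seen, Itgb5 made up 28.1%, 27.7% and 25.5% of the summed FPKM of Itgb3, Itgb5, Itgb6 and Itgb8 in control mice, and 47.4%, 52.8% and 49.4% in SRF mice. These 4 are the β chains of the αv integrins other than β1, whose gene Itgb1 differed by 0.12 on the log2 scale.

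**Figure D2:**
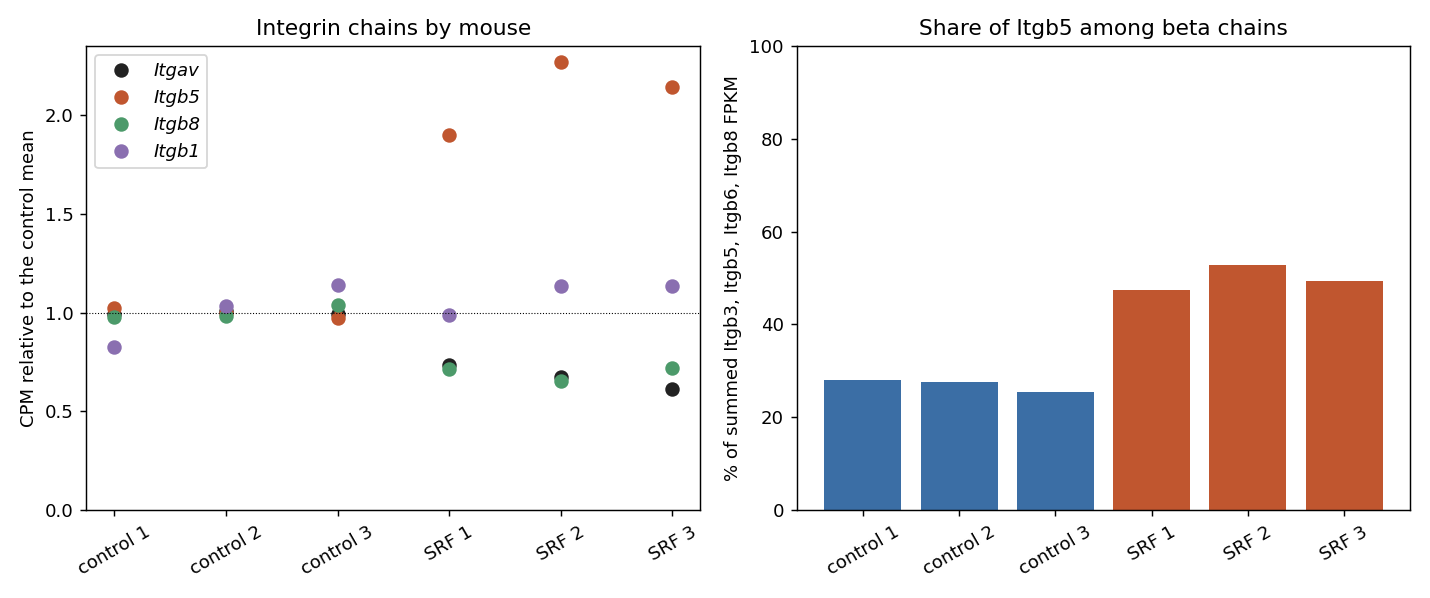
Left, TMM CPM of 4 integrin chains in each mouse relative to the control mean (dotted line at 1), where Itgb5 lies near 2 and Itgav and Itgb8 below 1 in all SRF mice. Right, the percentage of the summed FPKM of Itgb3, Itgb5, Itgb6 and Itgb8 that is Itgb5, from 25.5% to 28.1% in control and from 47.4% to 52.8% in SRF mice.

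Mertk (ENSMUSG00000014361, GRCm38 chr2:128698956-128802894, plus strand) encodes the receptor kinase without which the RPE binds outer segments but does not engulf them. Its level was 52.8, 53.0 and 51.2 CPM in control mice 1, 2 and 3, and 55.4, 48.6 and 41.8 CPM in SRF mice 1, 2 and 3. The controls were nearly identical, SRF mouse 1 was above them, and SRF mice 2 and 3 were below. The log2 fold change was -0.11 with a standard error of 0.13, the 95% interval of -0.42 to 0.21 leaves room for a modest difference in either direction, and the Benjamini-Hochberg adjusted p with edgeR was 0.996. The log2 fold change was 0.00 without SRF mouse 3 and -0.21 without SRF mouse 1. In the latter setting the groups no longer overlapped, as for 20.9% of all tested genes. In SRF the order of the mice by Mertk was also their order by Itgav and by the summed RPE markers, which were 48773, 41339 and 39761 CPM in SRF mice 1, 2 and 3. The part of RPE content in the Mertk values was not tested.

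Axl (ENSMUSG00000002602, GRCm38 chr7:25757273-25788705, minus strand) encodes the TAM receptor known from macrophages and vascular cells. It was at 109, 130 and 163 CPM in control mice and at 145, 194 and 198 CPM in SRF mice. SRF mice 2 and 3 were above all controls, while SRF mouse 1 lay within the control range. The log2 fold change was 0.41 with a standard error of 0.19 and a 95% interval of -0.04 to 0.86, and edgeR's Benjamini-Hochberg adjusted p was 0.762. Without the 2 photoreceptor-rich libraries the log2 fold change of Axl was 0.20, and with each mouse left out in turn it ranged from 0.29 to 0.58. The groups did not overlap without control mouse 3 or SRF mouse 1, where 22.7% and 20.9% of all tested genes did not overlap.

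Tyro3 (ENSMUSG00000027298, GRCm38 chr2:119797733-119818104, plus strand), the third TAM receptor, was at 26.4, 28.5 and 25.0 CPM in controls and 35.3, 34.2 and 25.3 CPM in SRF. SRF mice 1 and 2 were above the controls and SRF mouse 3, a photoreceptor-rich library, was among them. Its log2 fold change was 0.25 with a standard error of 0.16, and the Benjamini-Hochberg adjusted p with edgeR was 0.884. Without SRF mouse 3 the log2 fold change of Tyro3 was 0.39 and the groups did not overlap, as for 35.1% of all tested genes. The adjusted p was 0.307 in the same edgeR test. Without both photoreceptor-rich libraries the log2 fold change of Tyro3 was 0.38, also without overlap, as for 50.1% of all tested genes. The adjusted p there was 0.249 with edgeR and Benjamini-Hochberg adjustment.

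The balance of the 3 TAM receptors was compared in FPKM. Axl was the most abundant in every mouse, at 58.2% to 68.5% of the summed TAM FPKM in controls and 61.5% to 75.3% in SRF. Mertk made up 27.2%, 24.5% and 20.6% in control mice 1, 2 and 3, and 22.8%, 16.9% and 15.0% in SRF mice 1, 2 and 3. The lowest Mertk shares were those of SRF mice 2 and 3, and SRF mouse 1 lay within the control range. The mean Mertk share was 24.1% ± 3.28 in controls and 18.2% ± 4.08 in SRF (SD, n = 3 each), with p = 0.2 in a two-sided exact permutation test. The Axl share differed by 6.37 percentage points (p = 0.2) and the Tyro3 share by -0.51 percentage points (p = 0.8) in the same exact test, and since the 3 shares add up to the whole they are not independent. When single mice were omitted, the difference in the Axl share ranged from 3.25 (without SRF mouse 3) to 10.1 percentage points (without SRF mouse 1), and that in the Mertk share from -8.15 (without SRF mouse 1) to -4.24 (without SRF mouse 3). The difference in the Tyro3 share had no steady direction, from -1.98 without SRF mouse 1 to 0.99 without SRF mouse 3, and was 0.19 without control mouse 1.

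**Figure D3:**
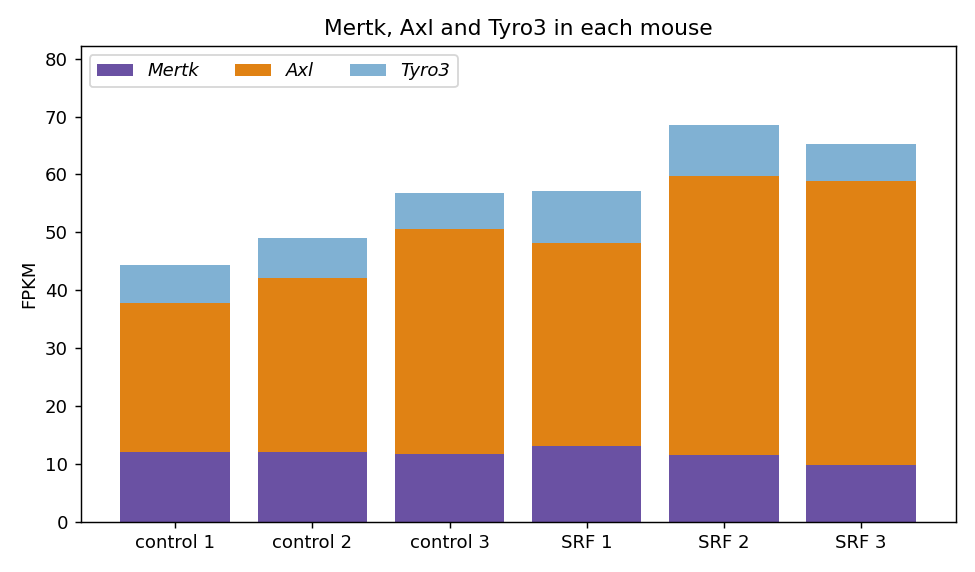
FPKM of Mertk, Axl and Tyro3, stacked, in each control and SRF mouse. Axl is the tallest part in every mouse, and the Mertk part runs from 9.79 FPKM in SRF mouse 3 to 13.03 FPKM in SRF mouse 1.

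Gas6 (ENSMUSG00000031451, GRCm38 chr8:13465374-13494490, minus strand) encodes a vitamin K-dependent ligand of all 3 TAM receptors. It was at 241, 385 and 504 CPM in control mice 1, 2 and 3, and at 403, 533 and 530 CPM in SRF mice 1, 2 and 3. Control mice alone spanned most of the range, and only SRF mice 2 and 3 were above control mouse 3. The log2 fold change was 0.37 with a standard error of 0.27, the largest error among the 10 genes, and edgeR's Benjamini-Hochberg adjusted p was 0.922. Its size depended on single control mice: it was 0.14 without control mouse 1 and 0.64, with no overlap of the groups, without control mouse 3. In that last setting 22.7% of all tested genes did not overlap. Without the 2 photoreceptor-rich libraries the log2 fold change of Gas6 was 0.07. The exons of Gas6 overlap those of Tmem255b on the opposite strand. With strandedness not given in the sources used here, reads from the 2 genes cannot be told apart there, although Tmem255b was far lower, at 8.04 to 28.0 CPM.

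Pros1 (ENSMUSG00000022912, GRCm38 chr16:62854307-62929346, plus strand) encodes protein S, an anticoagulant cofactor that is also a ligand of Mertk and Tyro3. Its level was 173, 149 and 184 CPM in controls, and 123, 203 and 217 CPM in SRF. The lowest and the highest value of all 6 mice were both in SRF, with SRF mouse 1 at the bottom. Its log2 fold change was 0.10 with a standard error of 0.22, and without SRF mouse 3 it was -0.04. The log2 ratio of Gas6 to Pros1 in FPKM was 1.48 ± 0.54 in controls and 1.84 ± 0.23 in SRF (SD, n = 3 each), with p = 0.5 in a two-sided exact permutation test. The difference of 0.36 was 0.05 without control mouse 1 and 0.24 without SRF mouse 1.

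Ptk2 (ENSMUSG00000022607, GRCm38 chr15:73205102-73423280, minus strand) encodes focal adhesion kinase, which passes the signal from the bound integrin on to MERTK. It was the steadiest of the 10 genes, at 58.7, 56.9 and 60.8 CPM in control mice and 61.2, 58.9 and 60.2 CPM in SRF mice. The log2 fold change was 0.03 with a 95% interval of -0.20 to 0.27, so that a change as large as that of Itgb5, Mfge8 or Itgav lies outside its interval. Myo7a (ENSMUSG00000030761, GRCm38 chr7:98051060-98119524, minus strand) encodes the myosin that moves phagosomes and melanosomes in the RPE. It was at 68.0, 74.5 and 58.5 CPM in controls and 72.5, 72.2 and 65.3 CPM in SRF, all SRF values within the control range. Its log2 fold change was 0.06 with a 95% interval of -0.24 to 0.36.

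**Figure D4:**
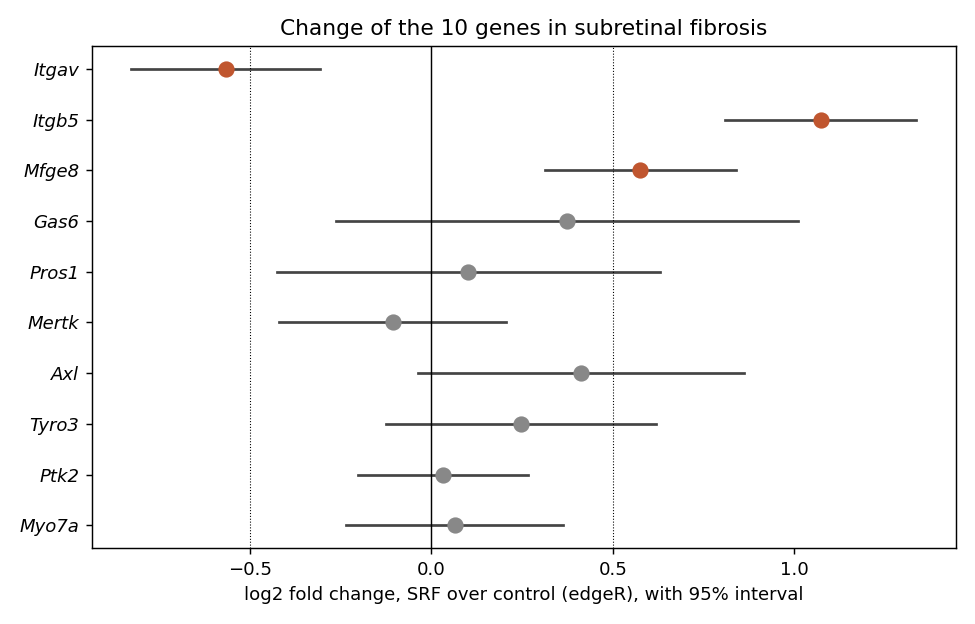
Log2 fold change of SRF over control from edgeR (points) with 95% intervals (lines) for the 10 genes, ordered from the binding integrin to the effectors. Orange points are the 3 genes whose groups do not overlap, the dotted lines mark the fold threshold of 0.5 either way, and the intervals of the other 7 genes include 0.

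By FPKM over all 6 mice the order of levels was Itgav at 187, Gas6 at 170, Mfge8 at 147, Itgb5 at 55.8, Pros1 at 52.8, Axl at 37.9, Myo7a at 18.3, Ptk2 at 15.7, Mertk at 11.7 and Tyro3 at 7.28. The ranges of neighbours overlapped for Itgav and Gas6, Gas6 and Mfge8, Itgb5 and Pros1, Pros1 and Axl, and Myo7a and Ptk2. Mfge8 was above Itgb5, Axl above Myo7a, Ptk2 above Mertk and Mertk above Tyro3 without overlap. Within the groups the order was not the same. In control mice Itgav was first, with a mean FPKM of 215, and Pros1, at 50.1, was above Itgb5, at 37.8. In SRF mice Gas6, at 195, and Mfge8, at 178, were above Itgav, at 159, with ranges that overlapped, and Itgb5, at 73.8, was above Pros1, at 55.6. Itgb5 and Pros1 did not overlap within either group. The receptor of engulfment was among the lowest of the 10 transcripts per length, and its ligand Gas6 among the highest. The place of Itgav depended on the unit: by CPM per kilobase of the longest annotated transcript, a choice made after the FPKM had been seen, it stood at place 6 and Gas6 at place 1.

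The levels of cell type markers moved with those of several members. The summed level of 20 macrophage and microglia markers was 1584 to 2061 CPM in controls and 3611 to 5108 CPM in SRF, with 19 of the 20 higher in SRF and 13 without overlap. Of its defining genes, the lysosomal Cd68 was at 68.5 to 88.9 CPM in controls and 138 to 189 CPM in SRF, Adgre1 at 12.4 to 21.2 CPM and 16.1 to 38.9 CPM, while the receptor gene Csf1r was at 146 to 175 CPM and 151 to 166 CPM. The summed level of 20 RPE markers was 55147 to 62723 CPM in controls and 39761 to 48773 CPM in SRF, with 13 lower and 7 without overlap. Between the groups, Itgb5 and Mfge8 were high where macrophage markers were high and RPE markers low, and Itgav the reverse, so that neither list goes with 1 gene alone. Within controls, the mouse with the lowest macrophage sum, control mouse 1, was the highest for both Itgb5 and Mfge8, although control Itgb5 spanned only 92.0 to 97.0 CPM. Within SRF, the mouse with the lowest macrophage sum, SRF mouse 1, was the lowest for both genes. SRF mouse 2 had the highest macrophage sum and was the highest for Itgb5 but not for Mfge8. The part of either list in the results was not tested, and in bulk tissue fewer cells of a type and less RNA per cell cannot be told apart.

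Fibroblast and mural markers varied within the groups, as Gas6 and Axl did. The sum of 10 such markers was 5836, 7153 and 12196 CPM in control mice 1, 2 and 3, and 8249, 10886 and 12889 CPM in SRF mice 1, 2 and 3. In each group the mouse with the lowest sum was also the lowest for Gas6 and for Axl. The sum of 11 endothelial markers was 1956 to 2296 CPM in controls and 1815 to 2411 CPM in SRF, and that of 14 inner retina markers was 1133 to 1937 CPM and 987 to 2047 CPM, so both overlapped between the groups. The lowest count of any listed gene in any library was 1, so that no listed marker could be at 0. Of 15 inner retina markers chosen, Pou4f2 was not among the listed genes. The part of these cell types in the values of Gas6 and Axl was not tested.

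**Figure D5:**
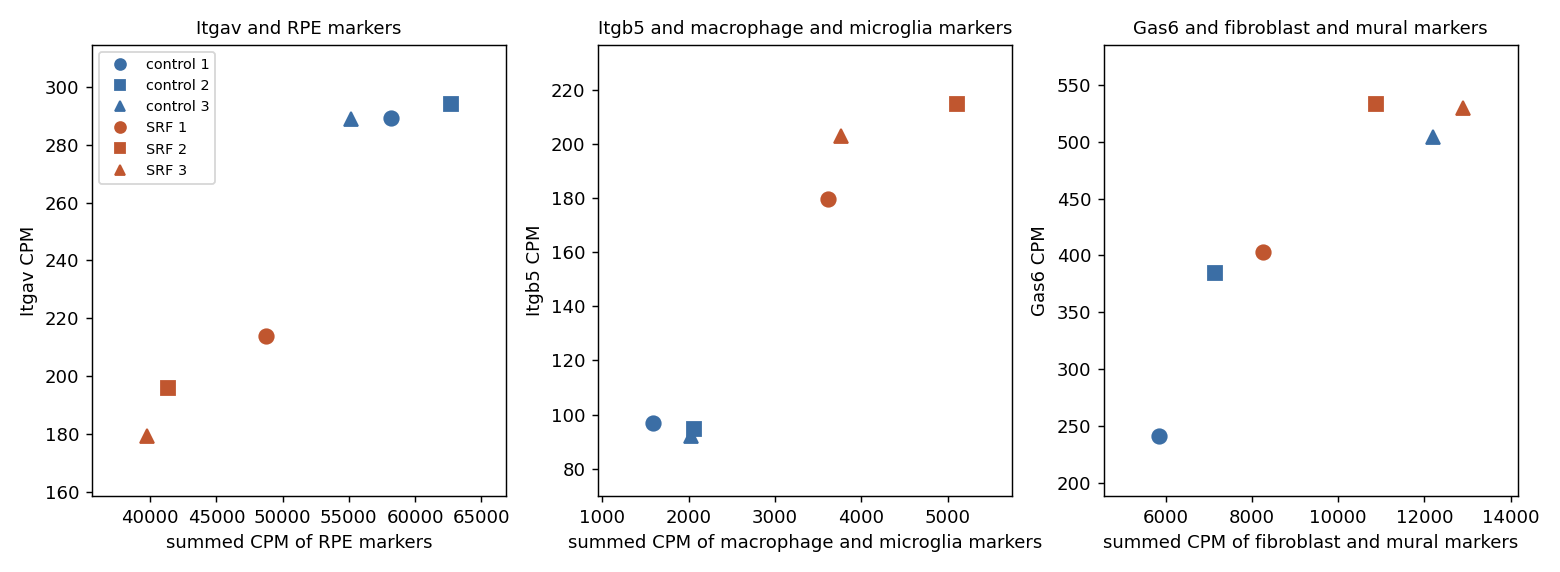
TMM CPM of Itgav, Itgb5 and Gas6 (vertical axes, not from 0) against the summed TMM CPM of RPE, macrophage and microglia, and fibroblast and mural markers in each mouse (symbols for mice 1 to 3, blue control, orange SRF). Control and SRF mice are apart in the Itgav and Itgb5 panels, and in the Gas6 panel control mouse 3 lies beside SRF mice 2 and 3.

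The other genes of the pathway were taken from 5 lists chosen by role. Of 63 listed genes 60 were tested, and edgeR called 0 of them, with 8 at an unadjusted p under 0.05, 5 higher and 3 lower, against 7.01% of all tested genes. DESeq2 called 3, Spp1 and Vav1 higher and Itgb8 lower, against 1.14% of all. Its call of Vav1 was lost without control mouse 1, control mouse 2, SRF mouse 2 or SRF mouse 3 and without the 2 photoreceptor-rich libraries. That of Spp1 was lost without control mouse 2, control mouse 3, SRF mouse 1 or SRF mouse 2, and that of Itgb8 without control mouse 3 or SRF mouse 2. Groups did not overlap for 9 of the 60, against 13.1% of all, and the median log2 fold change was 0.04, against 0.00 over all tested genes and 0.18 over the 10 members.

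Among the 9 partners and ligands of αv integrins, 2 were higher and 1 was lower at an unadjusted p under 0.05. Spp1, which encodes the integrin ligand osteopontin, was at 532 ± 95.6 CPM in controls and 798 ± 30.5 CPM in SRF (SD, n = 3 each), without overlap. Its log2 fold change was 0.59, with an adjusted p of 0.410 with edgeR and 0.0161 with DESeq2, both Benjamini-Hochberg adjusted. Fn1, which encodes the matrix ligand fibronectin, had a log2 fold change of 0.55 with a standard error of 0.20 and groups that overlapped. The Benjamini-Hochberg adjusted p of Fn1 was 0.619 with edgeR and 0.36 with DESeq2. Besides these and Itgb8, no gene of that list was at an unadjusted p under 0.05.

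Of the 10 tested receptors and bridges outside the member list, 2 were higher at an unadjusted p under 0.05 and none was lower. Lgals3 encodes galectin-3, a secreted lectin abundant in macrophages. It was at 146 ± 46.9 CPM in controls and 277 ± 62.1 CPM in SRF (SD, n = 3 each), a log2 fold change of 0.93 without overlap. The Benjamini-Hochberg adjusted p of Lgals3 was 0.496 with edgeR and 0.0702 with DESeq2. Cd36, a scavenger receptor that takes part in outer segment uptake, was at 53.6, 67.0 and 52.4 CPM in controls and 73.5, 75.4 and 84.2 CPM in SRF. Its log2 fold change was 0.43 without overlap, with a Benjamini-Hochberg adjusted p of 0.516 with edgeR and 0.271 with DESeq2. Megf10, an engulfment receptor of glia, had a log2 fold change of 0.28 with groups that overlapped.

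Among 19 engulfment signalling genes, 1 was higher and 1 lower at an unadjusted p under 0.05. Vav1, a signalling protein of blood cells, was at 3.05, 3.58 and 4.21 CPM in controls and 6.65, 9.47 and 8.74 CPM in SRF. The groups were apart, and its log2 fold change of 1.19 with a standard error of 0.26 had a Benjamini-Hochberg adjusted p of 0.311 with edgeR and 0.0302 with DESeq2. Gulp1, an adaptor of engulfment receptors, had a log2 fold change of -0.43 without overlap. Its Benjamini-Hochberg adjusted p was 0.555 with edgeR and 0.289 with DESeq2. Ptk2b, the paralogue of Ptk2, had a log2 fold change of 0.57, against 0.03 for Ptk2 itself. The groups did not overlap for Ptk2b, and its unadjusted p with edgeR was 0.0712.

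Of 18 genes of phagosome transport and degradation, 1 was lower and none higher at an unadjusted p under 0.05. That gene was Myrip, whose product links myosin VIIa to melanosomes, at 54.2, 51.1 and 44.3 CPM in controls and 35.8, 39.6 and 35.0 CPM in SRF. Its log2 fold change was -0.44 without overlap, while Myo7a itself differed by 0.06. The Benjamini-Hochberg adjusted p of Myrip was 0.434 with edgeR and 0.158 with DESeq2. Ctsd, the main lysosomal protease for digesting opsin, had a log2 fold change of 0.24 without overlap. Rab5a, of early endosomes, had one of -0.26 with groups that overlapped. None of the 4 genes of receptor shedding reached an unadjusted p of 0.05. Adam17, whose product cleaves MERTK from the surface, had a log2 fold change of 0.21, Adam10 one of -0.12 and Timp3, an inhibitor of such proteases made by the RPE, one of -0.25.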

How the data were processed

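RPE-choroid RNA of 3 control and 3 SRF mice was compared, with groups and mouse numbers taken from the sample labels and each library from a separate mouse. Per the study's methods, the authors filtered reads with FASTP and used StringTie to count them per gene, and these whole-number counts were deposited without normalization. The deposited FPKM values were scaled by the authors by transcript length and mapped reads. The aligner, the build and the strandedness are not given in the sources used here. Of 15663 identifiers 15659 were found in GENCODE M21 (GRCm38), from which positions were taken.

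The 13454 genes that exceeded 50 counts in 2 or more samples were tested with edgeR 4.0.16 in R 4.3.3, with TMM normalization, glmQLFit and glmQLFTest (legacy = TRUE) on group alone, and Benjamini-Hochberg adjustment over all of them. Members were read from that fit. Totals of 13667310 to 24356023 counts and 3 mice a group gave the members standard errors from 0.10 to 0.27 on the log2 scale. DESeq2 1.42.0, limma 3.58.1 on log2 FPKM (pseudocount 0.1 or 1), other normalizations and filters, a photoreceptor covariate, a replicate block and leaving out mice were the alternatives, and DESeq2 without the 2 photoreceptor-rich libraries was added after the data had been seen. Exact permutation tests were two-sided. The script was tested on simulated data.

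The members, the pathway and marker lists and the tests were chosen with earlier results of these data known. Named were all members and, of each pathway list, genes called by edgeR or DESeq2 and the 3 with the smallest unadjusted edgeR p. For Itgb5 and Mertk the 5 genes with the highest Pearson correlation of log2 CPM over the 6 libraries were found as a description, and 1 of these is not reported here.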

Additional observations from a re-analysis of the deposited data

How the results depend on the processing

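The log2 fold changes of Itgb5, Mfge8 and Itgav kept their direction under all 25 alternatives. DESeq2 called 153 genes, 3 members and 3 pathway genes. With the 2 photoreceptor-rich libraries left out, edgeR called 153 genes, 1 member (Itgb5) and 2 pathway genes (Lgals3 and Spp1), and DESeq2 called 514 genes, 3 members and 4 pathway genes. The other edgeR settings on all 6 libraries that moved the count (upper quartile, total count only, no filter, filterByExpr, legacy = FALSE and the photoreceptor covariate) each called 1 gene, and limma on log2(FPKM + 0.1) or log2(FPKM + 1) called 2, none of them a member. With each mouse left out in turn, calls over both tools ranged from 0 to 343 for all genes, from 0 to 3 for members and from 0 to 4 for pathway genes, all 6 DESeq2 fits calling 3 members and all 6 edgeR fits 0. edgeR called 5 genes without control mouse 1 and 0 without each other mouse. Members without overlap ranged from 3 to 7, with 7 without SRF mouse 1, where 20.9% of all tested genes did not overlap, and 6 without control mouse 3, where 22.7% did not. DESeq2 called most genes without SRF mouse 3 (343) or control mouse 1 (246) and fewest without SRF mouse 2 (67) or control mouse 2 (90).

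The log2 fold change of Pros1 turned to -0.034 (edgeR) and -0.039 (DESeq2) without the 2 photoreceptor-rich libraries, and ranged from -0.056 (without SRF mouse 3) to 0.318 with each mouse left out. That of Myo7a ranged from -0.025 (without control mouse 3) to 0.149. The causes were not tested.

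With the replicate block 0 genes, 0 members and 0 pathway genes were called. Equal numbers stand for different animals, and the correlations of their deviations from the group means were -0.48, 0.49 and -0.30. The photoreceptor-rich libraries carry different numbers, control mouse 1 and SRF mouse 3. These correlations therefore cannot show whether libraries of equal number were handled together.

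With 3 mice a group, the 95% intervals of the 7 members whose groups overlap reach from -0.43 (Pros1) to 1.01 (Gas6) on the log2 scale.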

Other observations

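The genes whose levels ran most like Itgb5 over the 6 libraries were Cd22, Clec7a, Dok7, Ctss and Timp2, and among those most like Mertk were Hmgn3, Huwe1, Susd5 and Cep128. They were named by the highest Pearson correlation of log2 CPM among all tested genes, as a description. For Itgb5 the control and SRF mice form separate clusters, so the likeness there is mostly the difference between the groups. The log2 fold changes of the 5 genes like Itgb5 were 1.51 for Cd22, 1.45 for Clec7a, 0.81 for Dok7, 1.61 for Ctss and 1.24 for Timp2. Those of the 4 genes like Mertk were between -0.19 and -0.12.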
